A study of Mus musculus with 2 samples.

Results

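Vascular leptomeningeal cells (VLMC) are the fibroblasts of the pia and arachnoid that follow vessels into the brain. Members were chosen by detection of fibroblast genes among cells with at least 500 genes. A member had a transcript of at least 3 of 8 genes (Dcn, Lum, Col1a1, Col1a2, Col3a1, Ogn, Slc6a13 and Igf2) and of at most 2 of 5 neuronal genes (Snap25, Syt1, Stmn2, Meg3 and Snhg11). The rule took 256 of 3801 cells, 132 of 1972 from the Irx5KO library and 124 of 1829 from the WT library.

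The Irx5KO library came from 6 pooled mice homozygous for loss of Irx5 (Irx5-/-), a homeobox transcription factor. The WT library came from 7 pooled wildtype mice. All mice were of the CD-1 strain and aged 7 to 8 weeks. Tissue of the arcuate nucleus with the median eminence, at the base of the hypothalamus, was dissociated, and live cells were sorted. Drop-seq captures each cell with a barcoded bead in a droplet, and transcripts were counted as unique molecular identifiers (UMIs). With 1 library of pooled animals per genotype, no difference between genotypes has a replicate check, genotype and library cannot be told apart, and no test was made. All 95% intervals below cover counting error only. Neither the sex of the mice nor the extent of the Irx5 deletion was known here.

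VLMC secrete the collagens, proteoglycans and basement membrane proteins that ensheathe blood vessels and the brain surface. They also carry solute transporters, supply growth factors such as IGF2, and pass cytokine signals from the blood side to the brain. In the median eminence, where capillaries are fenestrated, such fibroblasts lie in the perivascular space that hormones cross.

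Depth was alike in the libraries. The members summed to 169285 UMIs in Irx5KO and 169243 UMIs in WT, with medians of 1104 UMIs and 760 genes per cell in Irx5KO against 1204.5 UMIs and 795 genes in WT. The other cells had medians of 1764 UMIs in Irx5KO and 1653 UMIs in WT. The libraries shared 1 barcode sequence.

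Irx5 itself was not seen in VLMC of either genotype. The members held 0 Irx5 UMIs in Irx5KO and 0 in WT, which allows a share of cells with a UMI of up to 2.27% in Irx5KO and 2.42% in WT. The other cells held 0 Irx5 UMIs in Irx5KO and 13 UMIs in WT. Irx1, Irx2, Irx3 and Irx6, the related homeobox genes measured, likewise had 0 UMIs in the members of both libraries.

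The label fitted most of its defining genes, but not all. Levels are given as CPM (a gene's share of all UMIs, scaled to a common total), with UMIs summed over the members of a library. Dcn, the small proteoglycan decorin that organises collagen fibrils, stood at 24521 CPM in Irx5KO members and 32285 CPM in WT members, against 86.3 and 113 CPM in the other cells of the same libraries. Lum, the related proteoglycan lumican, stood at 2800 CPM in Irx5KO and 3646 CPM in WT. The chains of type I collagen were level between libraries, with Col1a1 at 922 and 939 CPM and Col1a2 at 1855 and 1979 CPM in Irx5KO and WT members. Slc6a13, the GABA transporter GAT2 of meningeal cells, was sparse, with 9 UMIs in each library. These genes chose the cells, so their excess over other cells is a description of the rule.

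Dcn was detected in 132 of 132 Irx5KO members and in 123 of 124 WT members. In neurons, which should lack it, 6.00% of Irx5KO cells (median 2559 UMIs) and 5.88% of WT cells (median 2233 UMIs) held a Dcn UMI. After thinning every cell to 1000 UMIs, the neuron shares were 2.59% in Irx5KO and 2.43% in WT, against 98.8% of members in each library. Thinning left out 50 Irx5KO and 39 WT members that were shallower.

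At the edge of the rule, Apod, which the rule did not use, stood at 16228 CPM in the 28 Irx5KO members and 9480 CPM in the 26 WT members with exactly 3 of the 8 genes. Members with 4 or more had 16844 CPM in Irx5KO and 15029 CPM in WT. The 13 Irx5KO and 23 WT cells with exactly 2, left out by the rule, had 4044 and 2579 CPM. Mgp stood at 14722 CPM in Irx5KO and 3605 CPM in WT members with 3 of the genes, and at 18350 and 6413 CPM in those with 4 or more. In WT, the edge members thus held less of both genes. The neuronal limit removed a further 8 Irx5KO and 3 WT cells.

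Most genes enriched in the members were not part of the rule. Of 1266 genes with at least 50 UMIs in the members, 192 (15.2%) were at least 4-fold higher than in the other cells in both libraries, and 12 (0.948%) were at least 4-fold lower in both. The rule itself fixed 7 of the 192, its own fibroblast genes, and 2 of the 12, the neuronal genes Meg3 and Snhg11. Others among the 12 included the neuronal transcript Pcsk1n, and also Nnat. Nnat had been listed as a further VLMC marker and ran the other way. It stood at 177 CPM in Irx5KO and 390 CPM in WT members, against 3184 and 3761 CPM in the other cells. Apod, a lipid-binding lipocalin, stood at 16735 CPM in Irx5KO and 13974 CPM in WT, 42.7-fold and 20.2-fold over the other cells. Oligodendrocytes also carried it, with a UMI in 88.7% of Irx5KO and 93.8% of WT cells at medians of 1728 and 1878 UMIs. Gsn, the actin-severing protein gelsolin, stood at 7543 CPM in Irx5KO and 5980 CPM in WT. Igfbp7, a secreted IGF-binding protein, was at 5334 CPM in Irx5KO members and 3297 CPM in WT members, but mural cells held as much, 6028 and 5324 CPM.

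Among the most selective genes outside the rule were matrix and secreted products, enzymes and a receptor. Itih5, a hyaluronan-binding inhibitor chain, stood at 4235 CPM in Irx5KO and 4378 CPM in WT, at least 134-fold over the other cells in both. Endothelial cells held more of it than those cells together, 333 CPM in Irx5KO and 264 CPM in WT. Mfap4, a microfibril protein, stood at 1778 CPM in Irx5KO and 1719 CPM in WT. Inmt, a methyltransferase that acts on tryptamines, stood at 2186 CPM in Irx5KO and 2074 CPM in WT. Crispld2, a secreted cysteine-rich protein, was at 2770 CPM in Irx5KO and 2363 CPM in WT, and mural cells held 321 and 272 CPM. Adh1, an alcohol dehydrogenase that can oxidise retinol, was at 284 CPM in Irx5KO and 414 CPM in WT, and Scara5, a ferritin receptor, at 289 CPM in Irx5KO and 390 CPM in WT. Mural cells of both libraries held 0 UMIs of Mfap4, Adh1 and Scara5.

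**Figure D1:**
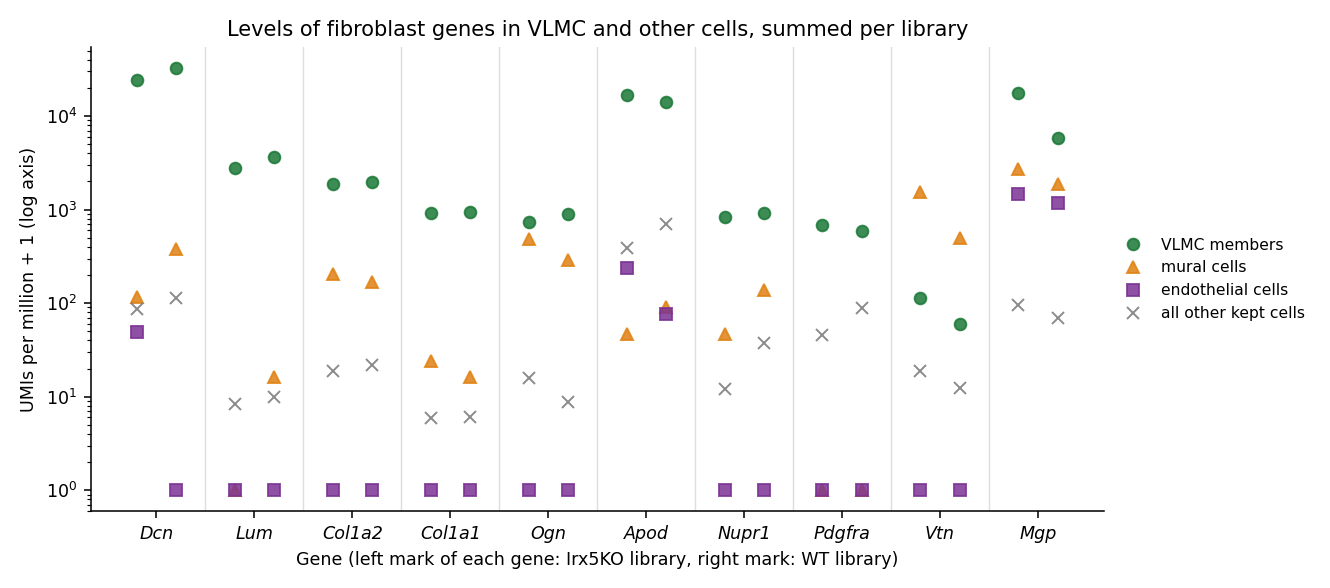
Levels of 10 fibroblast and vessel genes (CPM plus 1, log axis) in VLMC members, mural cells, endothelial cells and all other kept cells, with the Irx5KO library left and the WT library right for each gene. Members stand highest for every gene except Vtn, a pericyte gene that mural cells carry at 1536 CPM in Irx5KO and 498 CPM in WT; genes at 0 lie at the foot of the axis.

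Some meningeal markers were missing or low. Lama1, a pial laminin chain, and Slc47a1, an organic cation exporter of arachnoid barrier cells, had 0 UMIs in the members of both libraries. Aldh1a2, the retinoic acid synthase of meninges, had 1 UMI in each. Slc6a20a, Slc13a4 and Slc22a6, other listed markers, had 2, 1 and 0 UMIs in Irx5KO and 0, 1 and 2 UMIs in WT. Igf2, a gene of the rule, was found in 6.82% of Irx5KO and 8.87% of WT members. Of 14 arachnoid genes only Ptgds reached 50 UMIs, and of 14 dural genes Mgp and Ctgf. The dural genes summed to 18495 CPM in Irx5KO and 6541 CPM in WT, of which Mgp gave 17710 and 5879 CPM. Col15a1 and Cyp1b1, genes of perivascular fibroblasts, were measurable, at 254 and 189 CPM in Irx5KO and 160 and 124 CPM in WT.

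Some defining markers of other cell types were absent from the members, while summed marker levels were not always below those of the other cells. The endothelial genes Flt1, Pecam1 and Ly6c1 and the microglial genes Cx3cr1 and P2ry12 had 0 UMIs in both libraries. Over 11 endothelial markers the summed level was 603 CPM in Irx5KO and 355 CPM in WT, with 6 and 5 of the genes seen, against 197 and 381 CPM in the other cells. Among them Itm2a, a membrane protein not limited to endothelium, had 70 UMIs in Irx5KO and 27 in WT. Over 12 mural markers it was 408 CPM in Irx5KO and 674 CPM in WT, against 391 and 570 CPM in the other cells, with 9 and 11 genes seen. Single members reached 30942 CPM of mural markers in Irx5KO and 27870 CPM in WT. Over 8 ependymal markers it was 626 CPM in Irx5KO and 774 CPM in WT, against 402 and 1227 CPM in the other cells, and over 9 markers of oligodendrocyte precursors 709 and 650 CPM, against 624 and 1121 CPM. Those precursors share Pdgfra with fibroblasts. Over 10 oligodendrocyte markers it was 792 CPM in Irx5KO and 715 CPM in WT, against 7993 and 15336 CPM in the other cells. In each library 10 members held 3 or more genes of another marker list.

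The members' share of cells did not differ beyond counting error. They were 6.69% of Irx5KO cells (5.63% to 7.89%) and 6.78% of WT cells (5.67% to 8.03%), a ratio of 0.987 (0.767 to 1.27). Among cells with at most 2 of the neuronal genes, the shares were 12.5% in Irx5KO and 10.3% in WT, a ratio of 1.21 (0.939 to 1.56). Live-cell sorting and dissociation can both set such shares, and their part was not tested.

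Between genotypes, 155 of 1266 genes (12.2%) were at least 1.5-fold higher in Irx5KO members and 186 (14.7%) at least 1.5-fold lower. In the other cells the same genes gave 68 (5.37%) and 131 (10.3%). Of the 155, 40 were also at least 1.5-fold higher in the other cells, and of the 186, 54 were also at least 1.5-fold lower there. Genes that were 4-fold higher in members than in other cells made up 45 of the 155 and 22 of the 186. They were 192 (15.2%) of all 1266 genes. Over all 1266 genes the median log2 ratio of Irx5KO to WT was -0.05 in the members and -0.05 in the other cells.

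**Figure D2:**
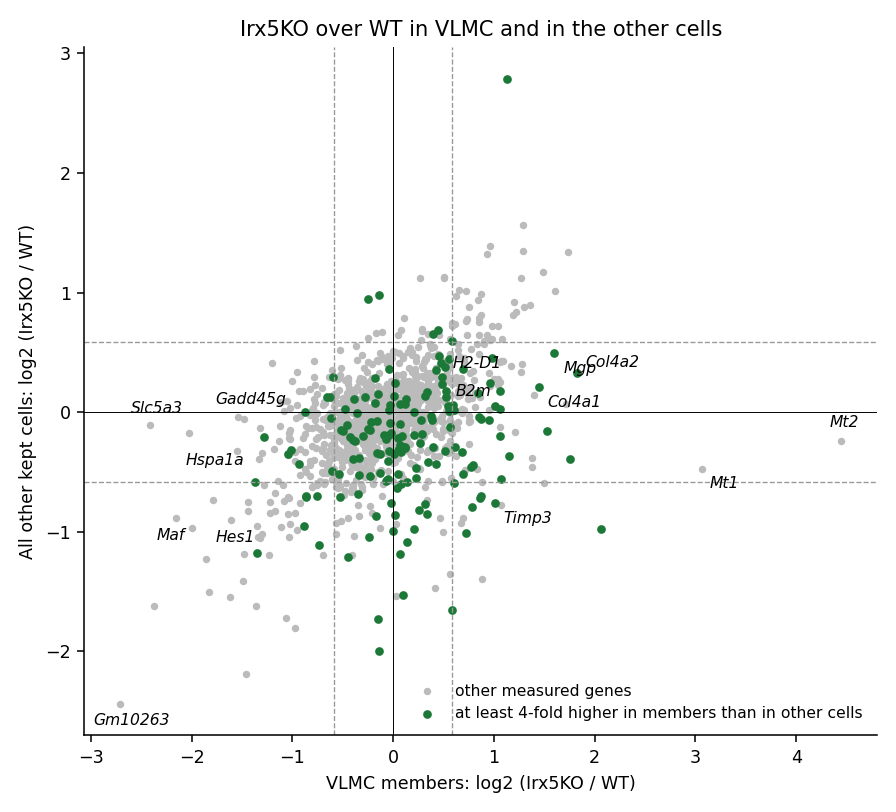
Each point is 1 of 1232 genes with at least 50 UMIs in the members and in the other cells, placed by the log2 ratio of Irx5KO to WT in VLMC members (x axis) and in all other kept cells (y axis). Dashed lines mark 1.5-fold; Mt1 and Mt2 lie far right with ratios below 1 in the other cells, while Gm10263 lies low in both.

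Both measured metallothioneins stood higher in Irx5KO VLMC, with the largest ratios of the 1266 genes. Mt2, a small zinc-binding and copper-binding protein, had 305 UMIs (1802 CPM) in Irx5KO members and 14 UMIs (82.7 CPM) in WT members, a ratio of 21.8 (12.8 to 40.3). Mt1, its neighbour with the same function, had 393 UMIs (2322 CPM) in Irx5KO and 47 UMIs (278 CPM) in WT, a ratio of 8.36 (6.17 to 11.6). Summed over the other cells, both genes were lower in Irx5KO, with ratios of 0.848 (0.793 to 0.908) for Mt2 and 0.721 (0.690 to 0.753) for Mt1. That sum differs in makeup between the libraries, with 916 Irx5KO and 629 WT neurons and 115 and 195 oligodendrocytes. The part of makeup in these ratios was not tested. A Mt2 UMI was found in 30.4% of Irx5KO and 21.0% of WT oligodendrocytes, and in 14.2% and 10.3% of neurons. Thinned to 1000 UMIs, the neuron shares were 7.14% and 4.49%. For Mt1 the unthinned shares were 73.9% and 74.4% of oligodendrocytes and 26.2% and 23.7% of neurons. In mural cells, counts were small, 4 Irx5KO and 7 WT UMIs of Mt2 and 5 and 20 UMIs of Mt1.

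Mt2 (chr8:94172664-94173568, plus strand) and Mt1 (chr8:94179082-94180327, plus strand) lie 1.8 Mb beyond the end of Irx5 (chr8:92357625-92376286, plus strand) in GENCODE's annotation of GRCm38. Metallothionein promoters are known for metal response elements, short sites bound by the zinc sensor MTF1, so the stretches ahead of both starts are shown. They are the 250 bases before the RefSeq start on GRCm38.p6, at chr8:94172368-94172617 for Mt2 and chr8:94178839-94179088 for Mt1, both on the plus strand, with matches to TGCACNC or TGCGCNC on either strand in capitals.
Mt2: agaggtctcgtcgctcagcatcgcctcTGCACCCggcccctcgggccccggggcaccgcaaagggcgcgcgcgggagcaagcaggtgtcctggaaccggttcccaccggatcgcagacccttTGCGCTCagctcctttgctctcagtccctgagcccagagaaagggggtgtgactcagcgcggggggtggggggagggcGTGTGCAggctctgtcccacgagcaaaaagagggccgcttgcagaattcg
Mt1: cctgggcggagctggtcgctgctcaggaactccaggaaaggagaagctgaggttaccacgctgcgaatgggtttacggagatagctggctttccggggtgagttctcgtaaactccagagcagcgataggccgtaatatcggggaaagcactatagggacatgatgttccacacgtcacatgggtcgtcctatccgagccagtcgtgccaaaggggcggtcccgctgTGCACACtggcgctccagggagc
The Mt2 stretch held 3 matches and the Mt1 stretch 1. Of 32851 RefSeq promoters of the same length, 21.4% held at least 1 match and 1.26% at least 3. GENCODE lists further starts of Mt1 at 94179211 and 94179241 and of Mt2 at 94172664 and 94172860, and the bases ahead of those were searched only as far as the stretches shown reach.

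The metallothionein UMIs sat in a minority of the Irx5KO cells. Mt1 and Mt2 together reached 5 or more UMIs in 28 of 132 Irx5KO members (21.2%, 14.6% to 29.2%) and in 1 of 124 WT members (0.806%, 0.0204% to 4.41%). In the other cells, where Mt1 is common in glia, 19.6% of Irx5KO and 22.2% of WT cells reached it. The limit of 5 was set after the values were seen and marks a range, not a cell type. No member held exactly 5 UMIs, 2 Irx5KO members held 4, and 4 Irx5KO and 1 WT member held 6 to 9. The highest cell held 105 UMIs in Irx5KO and 6 UMIs in WT, and 72 Irx5KO and 84 WT members held none.

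**Figure D3:**
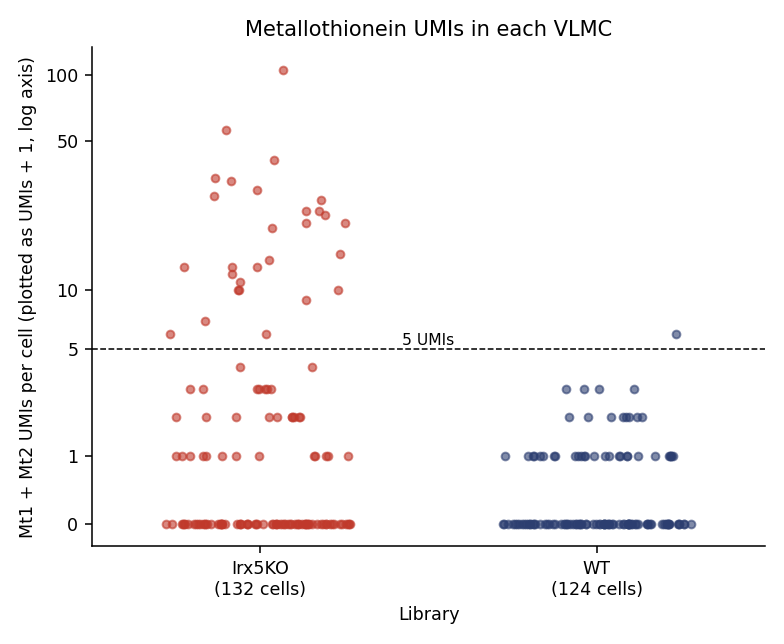
UMIs of Mt1 and Mt2 together in each VLMC member (log axis, plotted as UMIs plus 1), Irx5KO left and WT right, spread sideways for sight. Above the dashed line at 5 UMIs lie 28 of 132 Irx5KO cells and 1 of 124 WT cells.

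Other genes differed between these 28 cells and the other 104 Irx5KO members. Median depth was 1273 UMIs in the 28 and 1082.5 UMIs in the 104, and the median number of the 8 rule genes was 5 and 4. Of 994 genes with at least 30 UMIs, 17.0% were at least 1.5-fold higher in the 28 cells and 20.3% at least 1.5-fold lower. The genes named in this comparison were chosen after their values were seen.

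Genes of protein folding in the endoplasmic reticulum ran higher in the cells rich in metallothionein. Of 16 measured genes of that list, also made after the values were seen, 13 were at least 1.5-fold higher and 1 lower, with a median log2 ratio of 1.31. Hspa5, the chaperone BiP, stood at 5396 CPM in the 28 cells and 1605 CPM in the 104, a ratio of 3.36 (2.77 to 4.08). Serpinh1, the collagen chaperone HSP47, stood at 2359 CPM against 585 CPM, a ratio of 4.03 (2.96 to 5.52). Manf, a secreted protein of endoplasmic reticulum stress, stood at 934 CPM against 198 CPM. In WT members Hspa5 stood at 2322 CPM and Serpinh1 at 939 CPM, between these sets of Irx5KO cells. The heat shock list had 9 measured genes, of which 7 stood at least 1.5-fold above the 104 and 2 below, with a median log2 ratio of 1.10. Hspa5 is 1 of the 7 and is on both lists. The 2 lower were the HSP70 genes Hspa1a, with a ratio of 0.587 (0.464 to 0.736), and Hspa1b, with 0.563 (0.348 to 0.876).

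Some further genes higher there were picked singly. Ccl2, the chemokine that draws monocytes, had 131 UMIs in the 28 cells and 15 UMIs in the 104, a ratio of 25.8 (15.1 to 47.4), but only 10 cells of each set held it and 1 cell gave 38.2% of the UMIs in the 28. Cebpd, a transcription factor of the acute phase, stood at 1074 CPM against 190 CPM, a ratio of 5.66 (3.39 to 9.70). Icam1, an adhesion molecule for leukocytes, stood at 561 CPM against 174 CPM, a ratio of 3.22 (1.73 to 6.03). Of 12 measured complement and interferon genes, 7 stood at least 1.5-fold higher and 0 stood lower. Of 15 measured immediate early genes, the list that holds Cebpd, 3 were higher and 7 lower, with a median log2 ratio of -0.48.

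Some fibroblast products were lower in the same cells. Ptn, the growth factor pleiotrophin, stood at 420 CPM in the 28 cells and 3471 CPM in the 104, a ratio of 0.121 (0.0711 to 0.194). Only 6 of the 28 held it, with 38.9% of their UMIs in 1 cell, and 1 cell gave 28.2% in the 104. Hes1, a repressor downstream of Notch, stood at 117 CPM against 1091 CPM, a ratio of 0.107 (0.0342 to 0.256). The first level rests on 5 UMIs in 4 cells. Igfbp5, an IGF-binding protein, stood at 771 CPM against 2886 CPM, a ratio of 0.267 (0.181 to 0.382). In the 28, 11 cells held it and 1 cell gave 24.2% of the UMIs. Dcn was lower by less, at 17355 CPM against 26946 CPM, a ratio of 0.644 (0.594 to 0.697).

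The 104 Irx5KO members below the limit still stood above WT in several matrix and antigen presentation genes. Their own Mt1 and Mt2 levels were bounded by that limit, which was not applied to WT, and are not compared. Spp1 had a ratio of 4.68 (3.69 to 5.99) to WT, Mgp one of 2.42 (2.24 to 2.62), Col4a1 one of 1.96 (1.29 to 2.99) and H2-D1 one of 1.84 (1.49 to 2.29). Ccl2, at 119 CPM in these 104 and 207 CPM in WT, had a ratio of 0.573 (0.291 to 1.08).

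**Figure D4:**
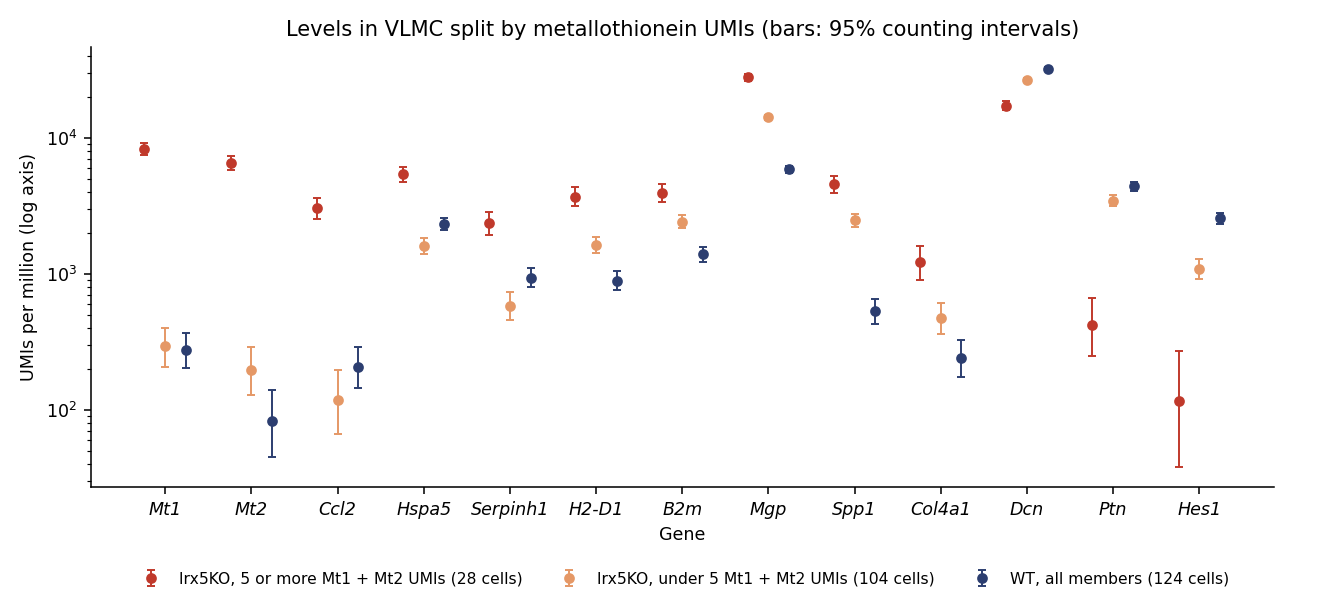
Levels of 13 genes (CPM, log axis) in Irx5KO members with at least 5 metallothionein UMIs, Irx5KO members with fewer, and all WT members, with 95% Poisson intervals. Mt1, Mt2 and Ccl2 stand high in the first set alone, while Mgp, Spp1, Col4a1, H2-D1 and B2m step down from the first set to WT.

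Most measured basement membrane genes were higher in Irx5KO VLMC, but several of them by little or on few UMIs. Of 9 measured genes of this list, 6 were at least 1.5-fold higher and 0 lower, with a median log2 ratio of 0.61 in the members and -0.06 in the other cells. Among all 1266 genes, 12.2% were that much higher. Col4a1 and Col4a2, the partner chains of type IV collagen, lie head to head and share a promoter region. Col4a1 stood at 662 CPM in Irx5KO and 242 CPM in WT, a ratio of 2.73 (1.89 to 4.01). Col4a2 stood at 419 CPM in Irx5KO and 118 CPM in WT, a ratio of 3.55 (2.14 to 6.16). Summed endothelial markers were higher in Irx5KO (603 CPM against 355 CPM) and summed mural markers lower (408 CPM against 674 CPM), and their part was not tested. In mural cells, which make the same collagen, Col4a1 had a ratio of 3.18 (1.49 to 7.22), and in neurons one of 1.14. Lamc1, a laminin chain, had 33 UMIs in Irx5KO and 18 in WT, Col4a5 had 56 and 37, and Col15a1 43 and 27. Counting error is wide at such counts. Sparc, a collagen-binding glycoprotein, stood at 3391 and 2216 CPM, a ratio of 1.53 (1.34 to 1.75), just past the limit.

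Among glycoproteins and elastic fibre genes, Mgp and Spp1 stood higher in Irx5KO VLMC. Mgp, matrix Gla protein, an inhibitor of calcification, stood at 17710 CPM in Irx5KO members and 5879 CPM in WT members, a ratio of 3.01 (2.80 to 3.24). It was detected in 95.5% of Irx5KO and 86.3% of WT members, against 8.84% of Irx5KO and 3.34% of WT neurons. In cells thinned to 1000 UMIs these shares were 95.1% and 87.1% of members and 2.83% and 1.31% of neurons. Its UMIs in neurons, 179 in Irx5KO and 27 in WT, moved the same way, and in mural cells its ratio was 1.46 (1.12 to 1.89). The part of free RNA in these values was not tested. Spp1, the phosphoprotein osteopontin, stood at 3019 CPM in Irx5KO and 532 CPM in WT, a ratio of 5.68 (4.53 to 7.18). A Spp1 UMI was found in 53.8% of Irx5KO and 22.6% of WT members, against 1.09% of Irx5KO and 0.159% of WT neurons. Thinned, the members' shares were 53.7% in Irx5KO and 17.6% in WT. Of 10 measured genes of this list, 4 were at least 1.5-fold higher and 2 lower, the latent TGF-beta binding protein Ltbp4 and the matrilin Matn2. The shares over all 1266 genes were 12.2% higher and 14.7% lower.

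Fibrillar collagens are mostly genes of the rule, so their values are a description of cells chosen by them. Of 4 measured fibrillar collagens, only Col3a1 passed 1.5-fold, with 1176 CPM in Irx5KO and 591 CPM in WT, a ratio of 1.99 (1.56 to 2.56). Col1a1 had a ratio of 0.981 (0.781 to 1.23) and Col1a2 one of 0.937 (0.801 to 1.10). Of 6 small leucine-rich proteoglycans, Bgn (biglycan) was higher, at 1837 CPM in Irx5KO and 1022 CPM in WT, and so was Ecm2. Dcn was 0.760-fold (0.729 to 0.791), and its ratio in the other cells was 0.762.

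Most measured proteases and their inhibitors were not 1.5-fold apart. Of 14 measured, 4 were at least 1.5-fold higher, 1 lower and 9 neither. The shares over all 1266 genes were 12.2% higher and 14.7% lower. Timp3, a matrix-bound inhibitor of metalloproteinases, stood at 4678 CPM in Irx5KO and 2316 CPM in WT, a ratio of 2.02 (1.79 to 2.29). Summed over the other cells, its ratio was 0.590 (0.535 to 0.651), while mural cells held 1742 CPM in Irx5KO and 1976 CPM in WT. Mmp14, a membrane metalloproteinase, had 58 UMIs in Irx5KO and 30 in WT, a ratio of 1.93 (1.22 to 3.11). Adamts1, a secreted protease that cleaves proteoglycans, was lower, at 313 CPM in Irx5KO and 573 CPM in WT, a ratio of 0.546 (0.383 to 0.771). Mmp2, a gelatinase gene that lies 0.45 Mb beyond Irx5 on chromosome 8, stood at 396 CPM in Irx5KO members and 390 CPM in WT members, a ratio of 1.01 (0.712 to 1.45).

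Antigen presentation genes were among those higher in Irx5KO VLMC. Of 11 measured complement and interferon genes, 5 stood at least 1.5-fold higher and 0 stood lower, with a median log2 ratio of 0.56 in the members and -0.20 in the other cells. Among all 1266 genes, 12.2% were that much higher. H2-D1, a heavy chain of class I major histocompatibility complex, stood at 2168 CPM in Irx5KO and 892 CPM in WT, a ratio of 2.43 (2.01 to 2.96), against 1.32 (1.22 to 1.43) in the other cells. H2-K1, the other classical heavy chain of this kind, stood at 732 CPM in Irx5KO and 372 CPM in WT, a ratio of 1.97 (1.44 to 2.71). H2-D1 and H2-K1 are near-identical in stretches and vary between mice, so how the counting divided their reads is uncertain. B2m, the light chain they share, stood at 2818 CPM in Irx5KO and 1400 CPM in WT, a ratio of 2.01 (1.72 to 2.36), against 1.04 (0.959 to 1.12) in the other cells. Psmb8, an immunoproteasome subunit, had 44 UMIs in Irx5KO and 13 in WT.

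**Figure D5:**
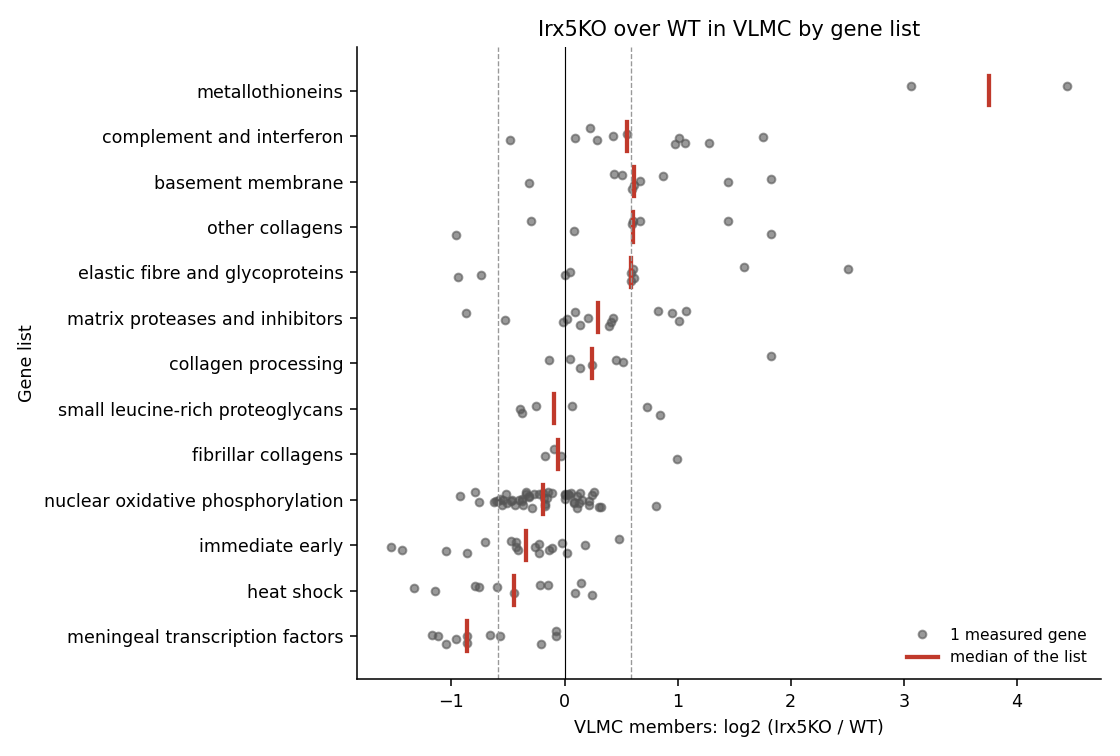
Log2 ratio of Irx5KO to WT in VLMC members for each measured gene (points) of 13 gene lists, with the list's median (red bar) and dashed lines at 1.5-fold. Both metallothioneins lie beyond 3, the basement membrane median is 0.61, and the median of meningeal transcription factors is -0.87.

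Class I heavy chain and B2m genes are known for kappaB sites, bound by NF-kappaB, so promoters of B2m and H2-K1 are shown. The 250 bases before the RefSeq start on GRCm38.p6 lie at chr2:122147437-122147686 (plus strand) for B2m and at chr17:34000348-34000597 (minus strand) for the first listed H2-K1 start. Capitals mark matches on either strand to GGG, any 2 bases, and then TTTCC or TTCCC.
B2m: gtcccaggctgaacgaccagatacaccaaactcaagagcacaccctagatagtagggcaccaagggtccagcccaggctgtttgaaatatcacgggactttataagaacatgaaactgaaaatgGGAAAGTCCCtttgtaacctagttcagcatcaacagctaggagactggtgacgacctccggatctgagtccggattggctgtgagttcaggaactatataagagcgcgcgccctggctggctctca
H2-K1: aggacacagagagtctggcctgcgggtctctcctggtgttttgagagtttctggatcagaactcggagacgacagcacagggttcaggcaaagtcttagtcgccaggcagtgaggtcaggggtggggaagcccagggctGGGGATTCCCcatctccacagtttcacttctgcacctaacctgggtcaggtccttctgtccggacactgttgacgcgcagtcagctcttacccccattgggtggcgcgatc
Each stretch held 1 match, the H2-D1 promoter held 1 and the Psmb8 promoter 0. Of the 32851 promoters, 2.82% held at least 1.

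Most measured transcription factors of meningeal fibroblasts were lower in Irx5KO VLMC. Of 11 measured, 7 were at least 1.5-fold lower in Irx5KO members and 0 higher, with a median log2 ratio of -0.87, and of -0.58 in the other cells. Among all 1266 genes, 14.7% were that much lower in the members. In cells thinned to 1000 UMIs only 3 of the 11 were still measured, with a median of -0.13. Of the 7, 2 (Klf4 and Nr4a1) are also on the immediate early list. Foxc1, a forkhead factor that meningeal development needs, had 16 UMIs in Irx5KO and 36 in WT, a ratio of 0.444 (0.230 to 0.821), whereas in mural cells it was higher, with 17 and 6 UMIs. Tcf21, a mesenchymal basic helix-loop-helix factor, had 18 and 39 UMIs, a ratio of 0.461 (0.248 to 0.826). Nr2f2, the nuclear receptor COUP-TFII, stood at 567 CPM in Irx5KO and 1034 CPM in WT, a ratio of 0.548 (0.423 to 0.707), close to the 0.611 of the other cells. Maf, a bZIP factor outside that list, had 20 UMIs in Irx5KO and 89 in WT, a ratio of 0.225 (0.131 to 0.368), against 0.540 in the other cells.

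Some stress and growth-arrest genes were lower too. Of 11 measured heat shock genes, 5 were at least 1.5-fold lower and 0 higher, against 14.7% of all 1266 genes lower. Hspa1a, the inducible HSP70 chaperone, stood at 3278 CPM in Irx5KO and 8237 CPM in WT, a ratio of 0.398 (0.360 to 0.440), against 0.762 in the other cells. Of 18 immediate early genes, 5 were lower and 0 higher, with a median log2 ratio of -0.34 in the members and -0.33 in the other cells. Gadd45g, a growth-arrest gene, stood at 543 CPM in Irx5KO and 1578 CPM in WT, a ratio of 0.344 (0.269 to 0.438), against 0.971 in the other cells. Genes of these lists are known to respond to dissociation, and its part was not tested.

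Further lower genes had varied roles. Hes1 stood at 845 CPM in Irx5KO and 2576 CPM in WT, a ratio of 0.328 (0.270 to 0.397), against 0.534 in the other cells. Slc5a3, the transporter of the osmolyte myo-inositol, had 9 UMIs in Irx5KO and 48 in WT, a ratio of 0.187 (0.0809 to 0.386), against 0.930 in the other cells. Thbd, the anticoagulant receptor thrombomodulin, had 23 and 81 UMIs, a ratio of 0.284 (0.170 to 0.456). Ptn stood at 2700 CPM in Irx5KO and 4402 CPM in WT, a ratio of 0.613 (0.545 to 0.690), with 27.1% of its Irx5KO UMIs in 1 cell. Predicted genes and likely processed copies such as Gm10263, with 32 UMIs in Irx5KO and 209 in WT, were low in the other cells as well, at a ratio of 0.184, and their reads cannot be told from those of near-identical genes.

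Several genes with high ratios rested on few cells. Igf2 had 48 UMIs in Irx5KO and 22 in WT, but 1 cell gave 79.2% of the Irx5KO UMIs. Without the 5 members with most UMIs in each library its ratio was 0.404, so no direction is drawn. Ptgds, prostaglandin D synthase of arachnoid cells, had 164 and 89 UMIs, with 79.9% and 68.5% of them in 1 cell each. Igfbp2, an IGF-binding protein, had 106 and 58 UMIs, and its ratio was 0.872 without the same members. Ccl2 had 34.2% of its Irx5KO UMIs in 1 cell, and its ratio of 4.17 became 0.569 without the members rich in metallothionein. Plac8, a small cysteine-rich protein, had 53 UMIs in 27 Irx5KO cells and 9 UMIs in 4 WT cells, a ratio of 5.89 (2.88 to 13.6), and of 3.57 (1.60 to 8.72) without the metallothionein-rich members. Sdc4, a heparan sulfate proteoglycan of focal adhesions, had 46 UMIs in Irx5KO and 14 in WT, a ratio of 3.28 (1.77 to 6.47), and of 2.01 (0.973 to 4.27) without them.

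Energy and cell cycle genes gave little. Of 52 measured nuclear genes of oxidative phosphorylation, 1 was at least 1.5-fold higher and 6 lower, against 12.2% and 14.7% of all 1266 genes. Their median log2 ratio was -0.19 in the members and -0.09 in the other cells. Of 15 cell cycle genes, 0 reached 50 UMIs. The barrier transporter list had 38 genes, of which 3 were measured. Slc29a1, a nucleoside transporter, was higher, with 56 UMIs in Irx5KO and 35 in WT, and Slc38a2, an amino acid transporter, was lower, with 32 and 72 UMIs.

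Clustering of the members on genes other than the 8 of the rule gave 3 clusters of 71, 146 and 39 cells. Leading genes included Tagln, Igf2 and Atf3 in the first, Ptgds, Dkk2 and Cxcl14 in the second, and Mt2, Mt1 and Ccl2 in the third. Several rested on few cells and do not describe most of their cluster. In the first, Tagln was seen in 1 Irx5KO and 3 WT cells, Igf2 in 5 and 4 and Atf3 in 4 and 11. In the second, Ptgds was seen in 10 and 9 cells, Dkk2 in 7 and 11 and Cxcl14 in 9 and 10. Since leading genes include some that differ between the libraries, the split of these clusters by genotype is not given. Clustered without the genes 1.5-fold apart in members, 2 clusters resulted, and the one with more Mt1 and Mt2 held 38.6% of Irx5KO members (30.3% to 47.5%) and 23.4% of WT members (16.3% to 31.8%). Clustered instead without the genes 1.5-fold apart in the other cells, 2 clusters also resulted, and the one with more Mt1 and Mt2 held 56.8% of Irx5KO members (47.9% to 65.4%) and 21.0% of WT members (14.2% to 29.2%). That clustering still used genes apart between the libraries' members. In both clusterings the cluster was picked by Mt1 and Mt2, which stood higher in Irx5KO members. Such a pick leans towards Irx5KO cells, so no difference between genotypes is drawn from these shares. No cluster was given a cell type name.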

How the data were processed

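Drop-seq was run on 1 Irx5KO and 1 WT library, grouped by the genotype labels. Of tools, STAR 2.6.0b, Seurat 3, Picard and bcl2fastq are named in the submitters' processing notes, with the build mm10 and no settings. Raw UMI counts were deposited for WT. For Irx5KO and for both libraries merged, the deposited values are natural log values: each barcode's counts were scaled to a total of 10000 and 1 was added. Whole counts were recovered from the merged table (100% of values whole within 1e-06), and the WT part differed from the raw counts in 0 of 4275938 UMIs. The design had assumed counts in all tables. No sample column was left unused.

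UMIs were summed over members per library. The 95% intervals are exact: Clopper-Pearson for shares, conditional binomial for ratios, Poisson for levels. The floor for a gene at 0 was 3 counts. Genes with at least 50 UMIs were counted past 1.5-fold by size, with no test. Mural and endothelial cells held 3 or more of their markers, neurons 3 or more of the 5 neuronal genes and oligodendrocytes 5 or more of theirs. No doublet caller was run, and the limit on neuronal genes and an alternative without mixed members stand in for it. Clusters used 1000 variable genes, 20 components, 15 neighbours and Leiden resolution 0.5 (scanpy 1.11.5, igraph 0.11.9, Python 3.11.15, scipy 1.17.1). Ratios were checked on simulated Poisson counts, the model that the intervals assume. Uneven spread of UMIs over cells was not simulated, so the check does not cover it.

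Members and gene lists were chosen with earlier results of these data known. Named genes are markers, the 15 most selective, the 10 most abundant, up to 12 per direction by the interval bound nearest no difference (at least 10 cells, at most 20% of UMIs in 1 cell), up to 4 per list, Irx genes with neighbours, and leading cluster genes. H2-K1, Ltbp4, Matn2, Pcsk1n and the genes of the metallothionein split lie outside it and were chosen after their values were seen. Part of the genes so named is described. Results for some genes are not reported here.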

Additional observations from a re-analysis of the deposited data

Results flagged for a closer look

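Some genes ran at least 1.5-fold opposite ways in VLMC and in the other cells summed together. That sum differs in makeup between the libraries, with 916 Irx5KO and 629 WT neurons and 115 and 195 oligodendrocytes. The difference between the cell groups was not tested. Timp3 had a ratio of Irx5KO to WT of 2.02 in VLMC and 0.590 in the other cells. In the vessel cells it was closer, at 1742 CPM in Irx5KO and 1976 CPM in WT mural cells and 619 and 718 CPM in endothelial cells. Serpine2, a protease inhibitor, had ratios of 2.10 and 0.584. Ecm2, a matrix proteoglycan, had ratios of 1.65 and 0.496, and Efemp1, the fibulin-3 gene, ratios of 1.52 and 0.664. Ccl2 had ratios of 4.17 and 0.509, with 34.2% of its Irx5KO UMIs in 1 member. Igfbp2 had ratios of 1.83 and 0.617, and the first was 0.872 without the 5 members with most UMIs in each library.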

How the results depend on the processing

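No paired analysis was possible because each genotype has 1 library. The members' share kept a ratio of 0.838 to 1.21 under its 7 alternatives. The 155 genes higher became 93 in cells with at least 800 genes, 45 in members with none of the 5 neuron markers, 65 in cells thinned to 1000 UMIs, 597 at 20 or more UMIs and 52 at 100 or more. The 186 genes lower became 73 with no neuron marker, 79 thinned, 656 at 20 or more UMIs and 66 at 100 or more. These settings test fewer or more genes (396 to 3435). The 192 class-enriched genes became 85 with no neuron marker, and 3 clusters became 7 at resolution 1. TMM and median-of-ratios scaling each gave 165 genes higher, the 155 among them.

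Of 225 values of 15 list medians, 7 moved beyond counting spread. A further 7 changed sign, in 3 lists whose medians were small: fibrillar collagens (-0.06, up to 0.23), the IGF axis (0.23, down to -0.26) and signalling genes (0.11, down to -0.07). The metallothionein median of 3.75 was 2.42 where members need 2 of the 8, 3.06 at 20 or more UMIs (3 genes in both) and 0.26 without members with 5 or more Mt1 and Mt2 UMIs, a setting chosen after seeing the data that selects on the measure itself and leaves 1 gene. Complement and interferon moved to 0.98 at 100 or more UMIs, meningeal factors to -0.13 when thinned (3 genes), and other collagens to 1.57 with no neuron marker and 1.41 thinned (1 gene each).

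The ratio of Igf2, 2.18, reversed to 0.563 without members that hold 3 or more genes of another list, 0.838 with no neuron marker, 0.718 as a mean over cells, 0.404 without the 5 members with most UMIs in each library and 0.603 without members rich in metallothionein. Igfbp2 reversed to 0.833, 0.902, 0.993 and 0.872 under the first 4 of these. Nnat, 0.454, reversed to 1.15 and 1.56 where members need 4 or 2 of the 8, and to 1.15 without mixed members. Ptgds reversed to 0.254 with at least 800 genes and 0.279 with no neuron marker, Snhg11 to 0.956 with at least 800 genes, and Igfbp6 to 1.12 with no neuron marker. Without members rich in metallothionein Ccl2 reversed to 0.569 and Xbp1 to 0.929. For these genes the cause was not tested. Counts past 1.5-fold leave out genes under 50 UMIs by choice, since counting error alone is wide there.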
